A study of Mus musculus with 12 samples.

Results

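The comparison described here sets primary mouse hepatocytes that received siRNAs against both Hnf4a and Cebpa beside hepatocytes of the same mice that received a control siRNA. Its libraries were taken by their labels, 3 of the double knockdown and 3 of the control (siCon), out of 12 in the series. All 15090 genes that passed a filter on low counts were tested, out of 55385 gene identifiers in the files. Hepatocytes were isolated from 3 mice, and the number of a library names its mouse, so that siCon 1 and double knockdown 1 came from mouse 1. Cells were harvested 48 h after transfection. The culture medium of both groups was Williams' E, to which 10% fetal bovine serum, glutamine, 100 nM dexamethasone and 5% of an insulin, transferrin and selenium supplement had been added, so every value below was measured in the presence of a glucocorticoid and insulin. The other 6 libraries, of siHnf4a alone and siCebpa alone, entered the fit for its estimate of spread. The labels name neither the strain, age and sex of the mice nor the siRNA sequences.

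HNF4A is a nuclear receptor and C/EBPA a basic leucine zipper protein. Both bind promoters and enhancers of genes that mark the mature hepatocyte, such as those for plasma proteins, lipoprotein assembly, bile acid synthesis and drug metabolism. They act within a network in which FOXA proteins, HNF4A and C/EBP proteins regulate one another's genes, so that the loss of 1 factor is often buffered by the others. The series title asks how transcription of the albumin gene is kept stable, and the double knockdown is the condition in which 2 of these factors were lowered together.

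The 6 libraries held 22453445 to 25008195 estimated counts. Values are given as counts-per-million (CPM), which depend on transcript length. Fold changes were taken within a gene. Sums over genes, shares of counts and rankings by CPM give more weight to long transcripts. Between 14109 and 14459 genes reached 10 counts in a library. Of all variance between the 12 libraries, 31.2% lay on a first component on which the double knockdown libraries (15.56 to 41.38) did not overlap those of siCon (-48.75 to -11.61), and 27.8% on a second component along which the libraries of mouse 1 had the highest value in each group. Markers of other liver cells were present at low levels. Summed over a list of 14, the Kupffer cell markers ran from 86.5 to 265.8 CPM in siCon and from 94.1 to 355.8 in the double knockdown, with mouse 1 highest in both. Most of that sum was Cd68. Without it, a look taken after the values were seen, the other 13 summed to 17.8, 9.11 and 21.98 CPM in siCon 1, 2 and 3 and to 8.59, 4.50 and 6.23 in the double knockdown, lower without overlap. Endothelial markers (12 genes) summed to 111.2 to 174.3 and 96.2 to 138.3 CPM. Stellate cell markers (12 genes) summed to 151.6 to 178.9 in siCon and to 88.4 to 147.8 in the double knockdown, without overlap. All 12 stellate markers were below 0 and 0 passed the test (1 without double knockdown 2). Lymphocyte markers (12 genes) summed to at most 1.25 CPM, with 2 of them at 0, Klrb1c among these. The part of other cells in the results below was not tested.

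Both siRNA targets were lower in the double knockdown, Hnf4a to 15.6% and Cebpa to 48.9% of siCon. Hnf4a (ENSMUSG00000017950.16; GRCm38, chromosome 2, 163506808 to 163572910, plus strand) had 144.1, 247.6 and 297.0 CPM in siCon 1, 2 and 3 and 40.1, 33.5 and 34.1 in double knockdown 1, 2 and 3. The 3 treated libraries lay close together and all below the control libraries, which themselves ranged widely. Cebpa (ENSMUSG00000034957.10; chromosome 7, 35119293 to 35121928, plus strand) had 178.8, 210.5 and 189.2 CPM in siCon and 109.1, 89.0 and 84.5 in the double knockdown, again without overlap. On the log2 scale Hnf4a fell by 2.68 ± 0.29 (standard error; 95% interval -3.31 to -2.04) and Cebpa fell by 1.03 ± 0.12 (-1.31 to -0.76), with adjusted p = 0.000233 and 0.000441 in edgeR's quasi-likelihood test with Benjamini-Hochberg adjustment over all tested genes. This test and a threshold of 0.05 are used throughout, and "rose" and "fell" are said only of genes past it. The p-values measure the spread between libraries of a group, estimated over all 12 libraries of 3 mice and without pairing by mouse. The antisense gene Hnf4aos overlaps Hnf4a, and reads of the 2 strands cannot be told apart because the strand setting is not given.

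Alb, the gene for serum albumin, had 9787, 7754 and 6174 CPM in siCon and 7602, 4569 and 4189 in the double knockdown. Each mouse had less in the double knockdown, but the groups overlapped, since double knockdown 1 exceeded siCon 3. The log2 fold change was -0.54 ± 0.38 (95% interval -1.37 to 0.30, adjusted p = 0.397, edgeR). With mouse as a block it was -0.56 and past the threshold (adjusted p = 0.0238). The RefSeq promoter of Alb holds a match to the C/EBP pattern TTGCNNAA, searched on both strands, that starts 94 bases before the annotated start. It is shown because the pattern is the binding sequence of the C/EBP family, of which Cebpa alone was a siRNA target. The match is in capitals (GRCm38.p6, chr5:90460761-90460798, plus strand).
Alb: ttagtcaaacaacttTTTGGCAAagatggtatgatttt
The pattern occurred in 8.92% of 13736 promoters of tested genes, in 10.2% of those of genes that rose and in 8.4% of those of genes that fell.

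**Figure D1:**
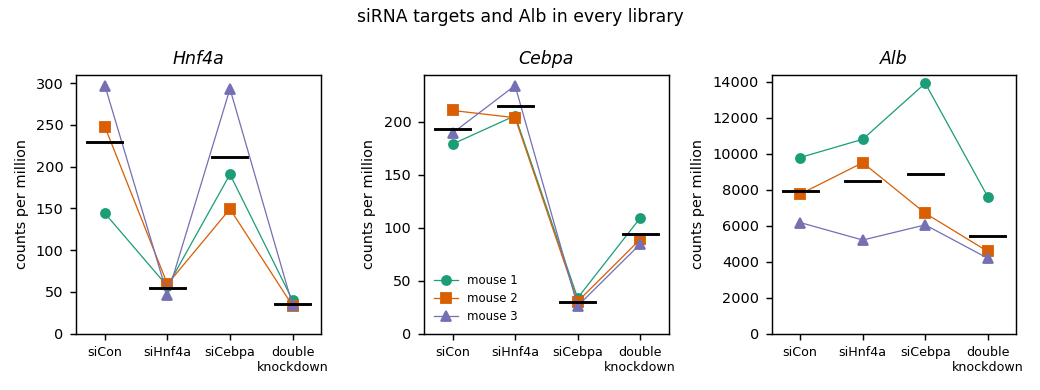
Counts-per-million of Hnf4a, Cebpa and Alb in all 12 libraries, 1 line and symbol per mouse, with the group means as black bars. Hnf4a in the double knockdown lay between 33.5 and 40.1 CPM, below all siCon libraries, and Alb was below its own control in 3 of 3 mice although the groups overlapped.

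Across all genes, 1041 rose (6.9% of those tested) and 1076 fell (7.13%). Of these, 223 rose and 441 fell at least 2-fold, and 63 rose and 181 fell at least 4-fold. All 1041 genes that rose were higher in the double knockdown in 3 of 3 mice, and 1075 of the 1076 that fell were lower in 3 of 3. The 3 double knockdown libraries lay above all 3 siCon libraries for 1037 of the first and below them for 1069 of the second. Over all tested genes 16.5% lay above and 16.3% below in that sense. The calls were made from these same libraries, so neither agreement is independent of them. The share of all tested genes with 1 direction in 3 of 3 mice is not given here. Genes that rose held 6.96% to 7.28% of the counts of a siCon library and 11.4% to 12.1% of a double knockdown library. Genes that fell went from 10.9% to 12.4% down to 5.79% to 6.08%. Most tested genes (13061 of 15090) were protein-coding, and of these 971 rose and 1041 fell. Of 384 tested processed pseudogenes 17 rose and 2 fell, both smaller shares than over all genes. With mouse as a block 2089 genes rose (13.8%) and 2359 fell (15.6%), and all 2117 genes called without it were among them with the same direction. Leaving out 1 library gave 577 to 1013 rises and 637 to 1028 falls. The counts were more than 1.5 times lower without siCon 2 (585 and 637) or siCon 3 (577 and 652), for rises also without double knockdown 3 (686) and for falls also without double knockdown 2 (647). The fits that left out a library, here and below, were run without mouse as a block.

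**Figure D2:**
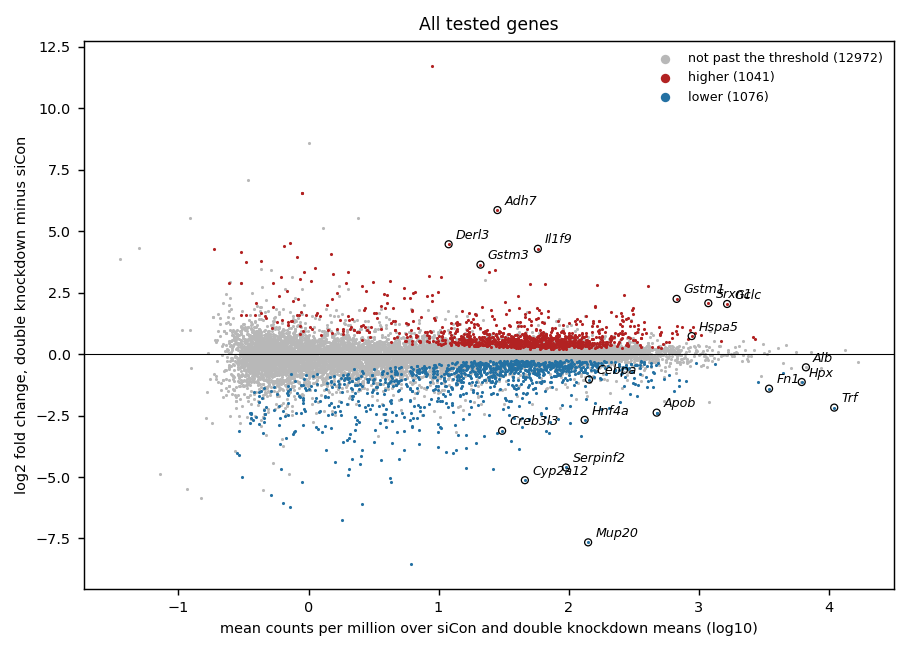
Log2 fold change (double knockdown minus siCon) against the mean CPM on a log10 axis for 15089 tested genes, 1 gene at 0 in both groups not being drawn, with 1041 genes that rose in red and 1076 that fell in blue. Among the labelled genes Mup20 is lowest at -7.66 and Adh7 highest at 5.86, and the red point near the top is the pseudogene Rpl10a-ps1, which is at 0 in all siCon libraries.

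The largest rises among genes with a mean of at least 10 CPM were in enzymes of detoxification and in single genes of other kinds. Adh7 (chromosome 3, 138217760 to 138233382, plus strand), an alcohol dehydrogenase that also oxidises retinol, had 0.793, 1.01 and 1.06 CPM in siCon and 29.7, 54.9 and 82.7 in the double knockdown. It was nearly silent in the controls and rose by 5.86 ± 0.46 log2 units (adjusted p = 2.87e-05, edgeR), most in mouse 3. Derl3 (chromosome 10, 75893413 to 75895941, plus strand), which serves the degradation of misfolded proteins at the endoplasmic reticulum, went from 0.555, 1.05 and 1.49 to 28.3, 23.1 and 17.3 CPM. Its rise of 4.47 ± 0.34 was largest in mouse 1, the mouse with the lowest control value. Il1f9, an interleukin-1 family cytokine of epithelia, went from 7.34, 3.91 and 5.70 to 72.1, 132 and 127 CPM (4.29 ± 0.39). Gstm3, a glutathione transferase, went from 3.93, 3.39 and 2.00 to 50.2, 35.5 and 30.9 (3.64 ± 0.30). None of these 4 genes had overlapping groups.

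The other large rises were those of Neurl1a, a ubiquitin ligase (3.15 ± 0.56), Itga7, the alpha chain of a laminin-binding integrin (2.85 ± 0.49), Cbr3, a carbonyl reductase (2.84 ± 0.20), and 4 glutathione transferases of the alpha class. The last were Gm10639 (3.42 ± 0.45), Gsta2 (2.81 ± 0.43), Gsta1 (2.78 ± 0.39) and Gm3776 (2.40 ± 0.39). They are near-copies on chromosome 9, between which the estimated counts could be split, so that the rise belongs to the family more surely than to any member. Itga7 overlaps Mettl7b on the other strand; the first went from 15.7, 16.3 and 16.5 to 52.2, 92.8 and 204 CPM while the second went from 21.7, 27.4 and 27.9 to 2.55, 1.73 and 0.816. Counts annotated to Trdc, a T cell receptor constant region, rose by 3.33 ± 0.91 (adjusted p = 0.0336, edgeR), from 1.39, 4.52 and 7.48 to 10.8, 42.3 and 81.0 CPM. The groups did not overlap, but the gap was small, between siCon 3 at 7.48 and double knockdown 1 at 10.8. Trdc missed the threshold without double knockdown 2 or 3 or without siCon 1, 2 or 3 (adjusted p up to 0.11), in fits without the block. With mouse as a block and all libraries it was at 3.24 ± 0.17 (adjusted p = 1.06e-06, edgeR).

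Among the largest falls were liver-specific secreted proteins and enzymes. Mup20 (chromosome 4, 62050234 to 62054158, minus strand), a major urinary protein secreted by the liver as a pheromone carrier, had 159.9, 353.4 and 329.9 CPM in siCon and 1.27, 2.60 and 0.301 in the double knockdown. Every treated library was under 1% of its control, and the fall of 7.66 ± 0.86 log2 units (adjusted p = 0.000282, edgeR) was the largest under the naming rule. Cyp2a12 (chromosome 7, 27029081 to 27037375, plus strand), a cytochrome P450 that acts on bile acids, went from 98.5, 115.5 and 54.7 to 2.71, 3.12 and 1.85 CPM (-5.13 ± 0.54). Serpinf2 (chromosome 11, 75431732 to 75439591, minus strand), the plasma inhibitor of plasmin, went from 126, 202 and 222 to 7.20, 8.70 and 6.57 CPM. Its fall of 4.61 ± 0.32 log2 units left the 3 treated libraries tightly grouped.

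Smpd3, a neutral sphingomyelinase (-4.65 ± 0.46), Proz, the coagulation cofactor protein Z (-4.01 ± 0.50), Baat, which joins bile acids to amino acids (-3.98 ± 0.56), Mettl7b, a methyltransferase (-3.91 ± 0.44), Acat3, a cytosolic thiolase (-3.84 ± 0.25), and Rdh7, a retinol dehydrogenase (-3.60 ± 0.70), fell as well. Cyp3a44 fell by 4.67 ± 0.93, Cyp21a1, a steroid hydroxylase, fell by 3.80 ± 1.08 and Cfhr2, of the complement system, fell by 3.52 ± 0.79. Cfhr2 missed the threshold without double knockdown 2 (adjusted p = 0.055), and Cyp21a1 without double knockdown 1 or 2 or siCon 2 or 3 (adjusted p up to 0.152). With mouse as a block and all libraries, Cfhr2 and Cyp21a1 had adjusted p = 6.6e-05 and 9.5e-06 (edgeR). In siCon, Cyp21a1 went from 6.71 CPM in mouse 1 to 64.2 in mouse 3. Smpd3, Acat3 and Cyp21a1 overlap genes on the other strand, and Cyp3a44 and Mup20 belong to families of close copies.

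**Figure D3:**
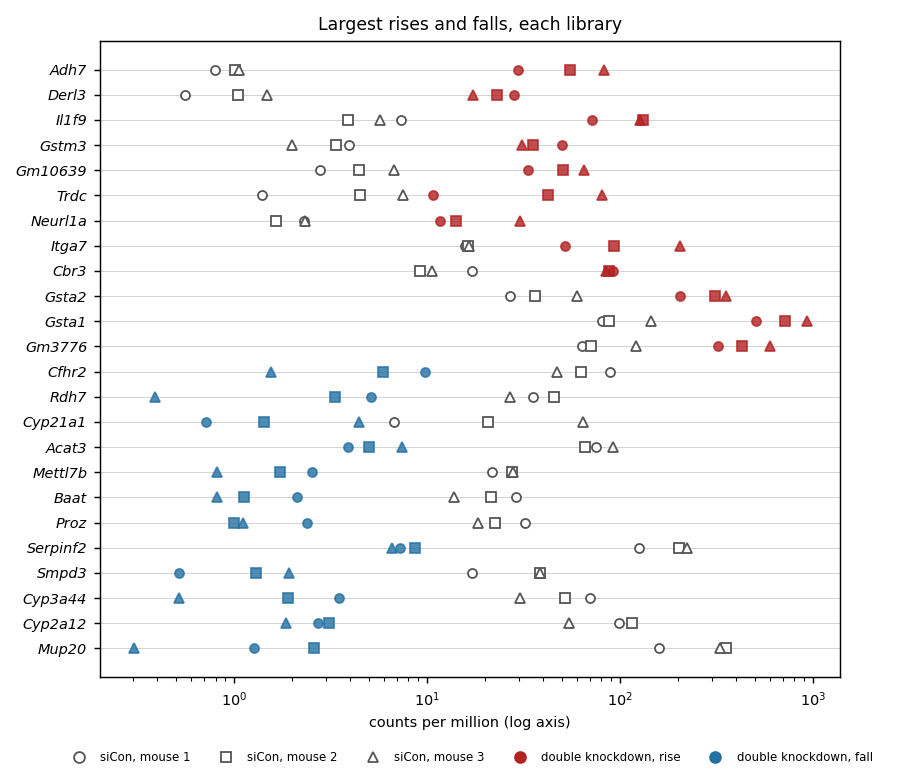
Counts-per-million on a log axis of the 12 largest rises (red) and the 12 largest falls (blue) in each double knockdown library, with the siCon libraries as open symbols of the same shape for the same mouse. For each of the 24 genes the filled and the open symbols form separate groups, with the smallest gaps for Trdc and Cyp21a1.

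By the size of the change in CPM, a scale on which long or abundant transcripts weigh most, iron and plasma proteins led the falls. Trf, the gene for transferrin (chromosome 9, 103204001 to 103230444, minus strand), went from 14360, 17860 and 21900 CPM to 3947, 2970 and 5070. It fell by 2.17 ± 0.23 log2 units (adjusted p = 0.000231, edgeR), to 22.1% of siCon, and the groups were far apart. Igfbp4, which binds insulin-like growth factors, went from 648, 926 and 829 to 178, 181 and 96.6 CPM (-2.40 ± 0.28). Fn1, plasma and matrix fibronectin, went from 3624, 5803 and 5702 to 1981, 1904 and 1833 (-1.40 ± 0.19), and Ftl1, the ferritin light chain, from 3718, 3856 and 4237 to 1896, 1850 and 1597 (-1.15 ± 0.14). Hpx, the haem carrier haemopexin, was at -1.13 ± 0.27 and Cp, the copper carrier ceruloplasmin, at -0.78 ± 0.17. Both were past the threshold with all libraries and missed it without double knockdown 2, Hpx also without siCon 2 (adjusted p up to 0.0788) and Cp also without siCon 3 (adjusted p up to 0.0577). In the other direction the ferritin heavy chain Fth1 went from 2095, 1920 and 1904 to 2770, 2990 and 3930 CPM (0.71 ± 0.17), opposite to the light chain. Fth1 missed the threshold without double knockdown 3, siCon 2 or siCon 3 (adjusted p up to 0.0651). Ferritin genes have processed copies elsewhere in the genome, between which counts could be split.

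Of 46 tested liver transcription factors, 9 fell and 4 rose, against 7.13% and 6.9% of all genes. The 9 include Hnf4a and Cebpa, the targets of the siRNAs. The median log2 fold change was -0.05 beside 0.0 over all tested genes. Besides the targets, Creb3l3, a membrane-bound factor of liver lipid genes, went from 47.3, 52.6 and 65.8 to 7.56, 7.31 and 4.17 CPM (-3.12 ± 0.23, adjusted p = 2.33e-05, edgeR). Its groups did not overlap. Nr1i2, the xenobiotic receptor PXR (-1.16 ± 0.25), Foxa3, a forkhead factor (-0.97 ± 0.16), Mlxipl, the carbohydrate response factor ChREBP (-0.78 ± 0.13), and Stat5b, which carries growth hormone signals (-0.41 ± 0.06), fell by less.

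Klf15 (0.95 ± 0.16) and Klf9 (0.64 ± 0.11), both zinc finger factors induced by glucocorticoids, and Bcl6, a repressor of growth hormone targets (0.45 ± 0.09), rose. Nr2f6 (-0.40 ± 0.11) and Gata4 (0.35 ± 0.09) were also past the threshold, and each lost it when any of several libraries was left out. Nr2f6 missed it without double knockdown 2 or 3 or siCon 2 or 3 (adjusted p up to 0.135), Gata4 without double knockdown 1 or siCon 2 or 3 (up to 0.0724). Other members of the network did not pass the test. Foxa1 was at 0.00 ± 0.08 with 37.1, 43.0 and 40.2 CPM in siCon and 40.7, 39.3 and 40.3 in the double knockdown, Foxa2 at 0.29 ± 0.16, Nr5a2 at 0.27 ± 0.18, Rxra at 0.14 ± 0.13 and Nr3c1, the glucocorticoid receptor, at -0.17 ± 0.16. The C/EBP relatives Cebpb (-0.36 ± 0.21), Cebpd (0.38 ± 0.15) and Cebpg (-0.33 ± 0.11) did not pass it either. The fit with mouse as a block had 7 rises and 13 falls, beside 13.8% and 15.6% of all genes. The additional ones included Cebpb (adjusted p = 0.00803, edgeR), Cebpg (0.00968) and Ahr, the dioxin receptor, at 0.92 ± 0.29 (0.0548 without and 0.000501 with the block).

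Of 32 tested genes listed as HNF4A-dependent, 16 fell and 1 rose, beside 7.13% and 6.9% of all genes, and the median log2 fold change was -1.5. Cyp2a12, Baat, Slc27a5, which activates bile acids (-3.91 ± 0.65), and Cideb, which loads lipid onto lipoprotein particles (-3.29 ± 0.28), fell most. Slc27a5 went from 13.4, 9.31 and 7.99 to 1.15, 0.476 and 0.387 CPM and Cideb from 23.3, 26.8 and 26.4 to 3.30, 2.38 and 2.10. Of 20 genes listed as C/EBPA-dependent, 7 fell and 1 rose, with a median of -0.28. Cyp2c29, a drug-metabolising P450, fell by 3.08 ± 0.47, Apon, an apolipoprotein, fell by 2.64 ± 0.22, Gys2, the liver glycogen synthase, fell by 2.47 ± 0.48 and Otc, of the urea cycle, fell by 2.46 ± 0.38. Apon went from 19.7, 27.9 and 31.8 to 4.50, 3.63 and 4.64 CPM, while Gys2 and Otc were low in every library, Otc with 1.90 to 3.32 CPM in siCon and 0.303 to 0.687 in the double knockdown. Otc, F9 and Serpina1a stand on both lists. With mouse as a block 2 of the second list rose and 7 fell, beside 13.8% and 15.6% of all genes. Fewer genes of the second list fell (4) without double knockdown 2 or 3 or without siCon 2. The lists were drawn up with earlier results of these data known.

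The HNF4A pattern CAAAGTCCA, searched on both strands of RefSeq promoter windows from 250 bases before to 50 bases after a start, was found in 0.475% of all 32851 promoters and 0.517% of the 13736 promoters of tested genes. Among 1107 promoters of genes that fell, 19 held it (1.72%, 17 genes), and among 1039 promoters of genes that rose, 3 did (0.289%). In genes that fell at least 2-fold, a subset looked at after the values were known, the count was 18 of 426 promoters (4.23%, 16 genes). The 17 and the 16 genes both include Cyp2c40, Cyp2c67, Cyp2c68, Cyp2c69 and Cyp2c70 of chromosome 19, so they are not all independent examples. None of the 33 promoters of the HNF4A-dependent list held these exact letters in the window. The segments shown are those of 7 genes that fell and kept the threshold when any 1 library was left out, chosen to compare the flanks of the match, which is in capitals in the direction of transcription.
Aspdh: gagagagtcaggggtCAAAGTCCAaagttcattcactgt
Aadat: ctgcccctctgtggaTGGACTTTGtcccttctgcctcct
Cyp2c40: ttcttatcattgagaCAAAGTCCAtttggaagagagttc
Cyp2c67: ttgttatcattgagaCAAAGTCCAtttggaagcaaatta
Cyp2c70: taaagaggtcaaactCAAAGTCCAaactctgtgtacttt
Muc13: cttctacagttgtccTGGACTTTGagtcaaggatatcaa
Sec16b: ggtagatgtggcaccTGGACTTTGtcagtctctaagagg
These lie at chr7:44465368-44465406 (plus strand), chr8:60506037-60506075 (plus), chr19:39812836-39812874 (minus), chr19:39649144-39649182 (minus), chr19:40187327-40187365 (minus), chr16:33794288-33794326 (plus) and chr1:157526121-157526159 (plus) of GRCm38.p6, in the order given.

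In Aadat, Muc13 and Sec16b the match is on the opposite strand and is read here as its complement. The match starts 52 bases before the annotated start in Aspdh, 72 in Aadat, 45 in Cyp2c40, 125 in Cyp2c67, 64 in Cyp2c70, 186 in Muc13 and 34 in Sec16b. Cyp2c40 and Cyp2c67 are copies in 1 gene cluster with nearly the same flanks, so that they are not independent examples. Cyp2c70, which makes the muricholic acids of the mouse, went from 32.1, 62.4 and 82.3 to 8.04, 13.7 and 10.4 CPM (-2.46 ± 0.48, adjusted p = 0.00695, edgeR), and Sec16b, of the secretory pathway, from 13.8, 18.3 and 20.1 to 5.69, 6.62 and 5.93 (-1.52 ± 0.22). Cyp2c67 fell by 4.91 ± 0.60 from 3.21, 4.80 and 3.74 CPM, Cyp2c40 fell by 3.11 ± 0.59 and Aadat, which breaks down aminoadipate and kynurenine, fell by 3.57 ± 0.53. Aspdh had a mean of 1.74 CPM in siCon and 0.041 in the double knockdown, and Muc13, a membrane mucin, 1.18 and 0.0408. A match is a description of the sequence, and binding was not measured.

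Genes for secreted plasma proteins fell in each of the lists examined, beside 7.13% falls and 6.9% rises over all tested genes. Of 36 tested plasma carriers and protease inhibitors 9 fell and 0 rose, of 26 coagulation and fibrinolysis genes 11 fell and 1 rose, of 25 complement genes 11 fell and 0 rose, and of 29 apolipoprotein and lipoprotein assembly genes 12 fell and 0 rose. The medians were -0.76, -0.87, -0.95 and -0.94 log2 units. All 25 complement genes had a log2 fold change below 0. In bulk RNA fewer cells of a type and less RNA per cell cannot be told apart. The 12 hepatocyte markers, several of them in these lists, summed to 30397 to 36130 CPM in siCon and to 14577 to 17981 in the double knockdown. Most of that difference was Trf. The other 11 summed to 14226 to 16040 and to 9875 to 14034 CPM. Of the 12 markers 5 fell (3 without double knockdown 2 or 3 or siCon 2), and 4 had a log2 fold change above 0. With the block 8 fell, beside 15.6% of all genes. Hnf4a, itself a target of the siRNAs, was among the 5 that fell.

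Apart from Serpinf2 and Trf, the carriers held genes with smaller differences. Serpina1a, an inhibitor of elastase, was at -1.30 ± 0.29 and Mug1, a broad protease inhibitor, at -1.60 ± 0.45; both passed the threshold with all libraries. Serpina1a missed it without double knockdown 2 or 3 or siCon 2 (adjusted p up to 0.0602), and Mug1 without any 1 of the 6 libraries (up to 0.111). Among coagulation genes F13b, a subunit of the fibrin-stabilising factor, went from 7.50, 5.08 and 5.14 to 0.716, 0.433 and 0.301 CPM (-3.59 ± 0.44) and F12, which starts the contact pathway, from 161, 125 and 74.5 to 24.1, 9.61 and 7.22 (-3.14 ± 0.65, adjusted p = 0.00929, edgeR). Both factors were lower in every treated library than in any control. The gene that rose was Cpb2, a fibrinolysis inhibitor, at 1.55.

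In the complement list Cfhr2 fell as given above. C3 itself, which was not chosen by the naming rule but is the hub of the pathway, was at -0.55 with adjusted p = 0.18. Among lipoprotein genes Apob, the structural protein of very low density lipoprotein, went from 858, 696 and 839 to 168, 146 and 146 CPM (-2.38 ± 0.22), and Mttp, which lipidates it, from 66.5, 66.5 and 72.2 to 21.2, 17.7 and 21 (-1.77 ± 0.18). These 2 were named after their values were seen, because both act with Cideb on the same particle. Apom and Apoc2, minor apolipoproteins, were at -3.17 ± 0.74 and -2.76 ± 0.77. Apom missed the threshold without double knockdown 2 or 3 or siCon 2 or 3 (adjusted p up to 0.0706), and Apoc2 without any library but siCon 1 (up to 0.113). With mouse as a block and all libraries, Apom and Apoc2 had adjusted p = 0.0059 and 2.2e-06 (edgeR).

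With mouse as a block 23 carriers fell and 2 rose, and 17 coagulation genes fell, beside 15.6% and 13.8% of all genes. With 1 library left out, falls ran from 3 to 10 carriers, 7 to 10 coagulation genes, 4 to 10 complement genes and 7 to 11 lipoprotein genes. The counts were more than 1.5 times lower for carriers without double knockdown 2 (3) or 3 (5) or siCon 2 (4) or 3 (5). For coagulation they were lower without double knockdown 2 or siCon 3 (7 each). For complement they were lower without double knockdown 2 (4) or 3, siCon 1 or siCon 2 (7 each), and for lipoproteins without siCon 2 (7).

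**Figure D4:**
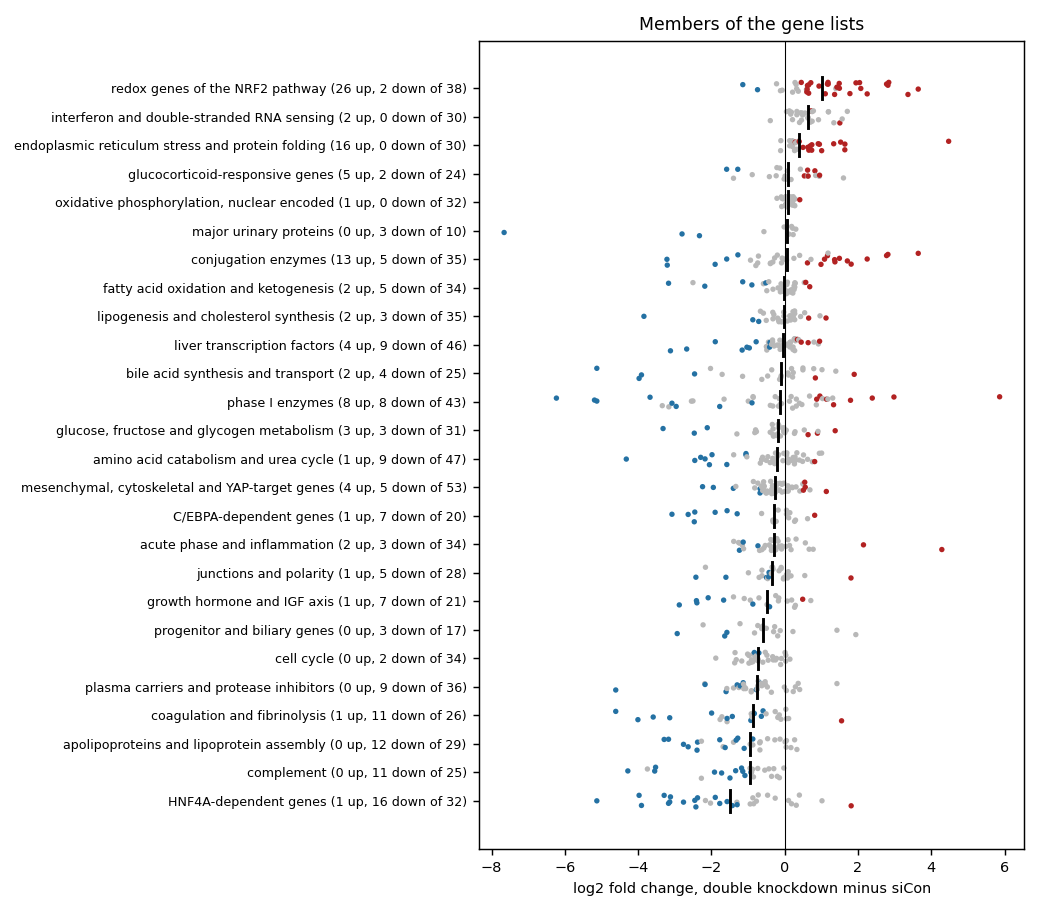
Log2 fold change of every tested member of 26 gene lists, 1 point per gene (red rose, blue fell, grey not past the threshold), with the list median as a black bar and the lists ordered by it. The redox list has the highest median (1.02, 26 of 38 genes rose) and the HNF4A-dependent list the lowest (-1.5, 16 of 32 fell).

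Redox genes of the NRF2 pathway were the list with the most rises. NRF2, encoded by Nfe2l2, is a transcription factor that is held back by KEAP1 and, when released by oxidants or electrophiles, induces glutathione synthesis, thioredoxin-linked enzymes, NADPH supply and conjugation enzymes. Of 38 tested members 26 rose (background 6.9%) and 2 fell, with a median log2 fold change of 1.02. Nfe2l2 was not among them (0.31, adjusted p = 0.11).

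For glutathione synthesis, Gclc, the catalytic subunit of the limiting enzyme (chromosome 9, 77754535 to 77794485, plus strand), went from 517, 621 and 799 to 2563, 2847 and 2572 CPM (2.04 ± 0.17, adjusted p = 3.98e-05, edgeR). Its regulatory subunit Gclm went from 172, 159 and 147 to 371, 362 and 340 (1.17 ± 0.10). Slc7a11, the cystine importer, went from 104, 41.1 and 53.5 to 256, 277 and 229 CPM (1.94 ± 0.27). In the thioredoxin branch Srxn1, which repairs peroxiredoxins (chromosome 2, 152105516 to 152111376, plus strand), went from 518, 432 and 415 to 1886, 2158 and 1705 CPM (2.08 ± 0.14). Txnrd1, thioredoxin reductase, went from 753, 610 and 609 to 1043, 1065 and 884 (0.60 ± 0.11). In none of these 5 genes did the groups overlap.

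For NADPH supply, Pgd of the pentose phosphate pathway went from 676, 557 and 499 to 1214, 1300 and 1212 CPM (1.11 ± 0.13). Nqo1, a quinone reductase often used as the readout of NRF2, went from 11.3, 10.2 and 12.7 to 37.6, 34.9 and 44.9 (1.78 ± 0.14). Gstm1 went from 255, 253 and 198 to 991, 1201 and 1162 (2.25 ± 0.15), and Gstp1 from 1958, 2228 and 2182 to 3295, 3099 and 3391 (0.62 ± 0.14). Gstp1 was past the threshold with all libraries and missed it narrowly without double knockdown 3 or siCon 3 (adjusted p up to 0.0521). Gpx2, a glutathione peroxidase, was low but rose by 3.36 ± 0.57, from 0.397, 0.363 and 0.298 to 4.93, 4.93 and 1.16 CPM. The 2 members that fell were Ftl1 and Hmox1, haem oxygenase, at 243, 312 and 277 CPM in siCon and 166 in each treated library (-0.74, adjusted p = 0.00355). Gclm, Slc7a11, Txnrd1, Nqo1 and Hmox1 were named after their values were seen, to cover the branches of the pathway. With 1 library left out, 20 to 25 members rose and 2 fell.

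The antioxidant response element, the sequence NRF2 binds, was searched as TGACNNNGC on both strands. It occurred in 12.4% of all promoters and 14.4% of promoters of tested genes, in 16.6% of those of genes that rose and in 14.0% of those of genes that fell. In the redox list 12 of 40 promoters held it (30.0%, 11 genes), and among the members that changed, in either direction, 8 of 29 did (27.6%). The list was made of genes of the NRF2 pathway, so its share is not independent of how it was made. The segments below are from 3 members that rose and kept the threshold without any 1 library, with each match in capitals.
Gclm: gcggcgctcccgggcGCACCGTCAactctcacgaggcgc
Txnrd1: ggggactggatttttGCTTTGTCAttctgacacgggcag
Ugdh: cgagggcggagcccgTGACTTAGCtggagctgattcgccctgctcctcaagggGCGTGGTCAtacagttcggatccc
They lie at chr3:122245408-122245446 (plus strand), chr10:82859099-82859137 (plus) and chr5:65435913-65435989 (minus) of GRCm38.p6. The match starts 134 bases before the start in Gclm and 92 in Txnrd1, each on the opposite strand. Ugdh, which makes the sugar donor of glucuronidation, has 2, starting 132 and 94 bases before the start, 1 on each strand. It went from 125, 138 and 186 to 395, 430 and 433 CPM (1.49 ± 0.20, adjusted p = 0.000798, edgeR). A match to so short and common a pattern does not show binding.

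Genes of endoplasmic reticulum (ER) stress and protein folding also rose. When unfolded protein accumulates in the ER, the sensors ATF6, IRE1 and PERK induce chaperones, disulfide isomerases and degradation factors. Of 30 tested members 16 rose, beside 6.9% of all genes, and 0 fell, with a median of 0.38, and 28 of 30 had a log2 fold change above 0. After Derl3, the largest rises were those of Sdf2l1, an ER chaperone cofactor, from 7.50, 8.95 and 11.3 to 32.8, 25.4 and 28.2 CPM (1.64 ± 0.17), and Creld2, an ER-resident folding factor, from 15.4, 15.4 and 17.6 to 54.2, 50.2 and 46.4 (1.64 ± 0.09, adjusted p = 6.86e-06, edgeR). Dnajb9, a co-chaperone, went from 38.9, 34.2 and 33.8 to 102, 109 and 97.2 CPM (1.52 ± 0.11). Each of these 4 genes had its 3 treated libraries well above its controls. Named after their values were seen, the major chaperones Hspa5 (BiP; 705, 649 and 636 to 1110, 1174 and 1027 CPM, 0.74 ± 0.10) and Hsp90b1 (246, 201 and 235 to 457, 434 and 480 CPM, 1.01 ± 0.12) rose as well.

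Transcription factors and other regulators of the response are part of the same list. Xbp1 was at -0.11, Atf4 at 0.13, Atf6 at 0.24 and Trib3 at -0.11, none past the threshold, while Ddit3, the stress factor CHOP, was at 0.69 (adjusted p = 0.015). Ddit3 missed the threshold without double knockdown 1 or siCon 3 (adjusted p up to 0.0651). With 1 library left out, 13 to 16 members rose and 0 fell.

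The ER stress element, bound by ATF6 together with NF-Y, was searched as CCAAT, 9 bases of any kind and CCACG on both strands. It was rare, with 0.119% of all promoters and 0.138% of promoters of tested genes (19 of 13736). Of 1039 promoters of genes that rose 7 held it (0.674%), and of 1107 of genes that fell 0 did. In the ER list it was in 9 of 26 promoters (34.6%), and in 6 of the 14 of members that rose (42.9%). The list holds textbook targets of this element, so its share is not independent of how the list was made. The 5 segments below belong to members that rose without depending on any 1 library, with the whole element including its 9 inner bases in capitals.
Derl3: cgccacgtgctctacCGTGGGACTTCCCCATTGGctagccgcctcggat
Creld2: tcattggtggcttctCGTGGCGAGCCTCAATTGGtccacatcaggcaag
Hspa5: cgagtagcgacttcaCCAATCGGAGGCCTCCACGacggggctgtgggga
Pdia6: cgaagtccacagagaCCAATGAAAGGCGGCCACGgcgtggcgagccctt
Hsp90b1: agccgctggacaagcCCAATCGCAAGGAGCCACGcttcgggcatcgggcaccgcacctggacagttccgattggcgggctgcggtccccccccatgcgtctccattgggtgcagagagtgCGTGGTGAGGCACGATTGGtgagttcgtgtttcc
They lie at chr10:75893227-75893275 (plus strand), chr15:88819505-88819553 (plus), chr2:34772010-34772058 (plus), chr12:17266476-17266524 (plus) and chr10:86705518-86705671 (minus) of GRCm38.p6. The element starts 156, 126, 65 and 98 bases before the start in the first 4, on the opposite strand in Derl3 and Creld2. In Hsp90b1 there are 2, starting 212 and 107 bases before it, on both strands. Derl3, with the largest rise of the list, and Hspa5, with 0.74, carry 1 element each.

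Detoxification enzymes moved in both directions, beside 6.9% rises and 7.13% falls over all genes. Of 43 phase I enzymes, which oxidise or hydrolyse drugs and endogenous compounds, 8 rose and 8 fell, and of 35 conjugation enzymes 13 rose and 5 fell. Among phase I genes Cyp2a12 fell and Adh7 rose as given above, Cyp2d9, a mouse P450, fell by 5.19 ± 0.86 from 8.65, 11.6 and 4.76 CPM, and Cyp3a25, also a P450, had 1.35, 1.77 and 1.19 CPM in siCon against 0, 0 and 0.043. Cyp1a1 (0.992, 0.766 and 1.10 to 7.96, 7.49 and 7.22 CPM) and Cyp1a2 (1.07, 1.29 and 1.53 to 9.35, 7.92 and 3.14), the classical targets of the dioxin receptor, rose by 2.98 ± 0.36 and 2.39 ± 0.40, and were named after their values were seen. Among conjugation genes, 10 of the 13 that rose were glutathione transferases of the alpha, mu and pi classes, led by Gstm3, Gsta2, Gsta1 and Gstm1. Glyat, which joins acyl groups to glycine, fell by 3.21 ± 0.23, from 40.6, 55.4 and 55.9 to 6.09, 6.28 and 4.08 CPM. Sult1a1, a phenol sulfotransferase, was at -3.21 ± 0.84 with 164, 136 and 84.5 CPM in siCon and 29.5, 8.40 and 3.27 in the double knockdown. Its call was lost without double knockdown 2 or 3 or siCon 1 or 2 (adjusted p up to 0.108), and the count of conjugation genes that fell went to 2 without the first and to 3 without each of the others. In the blocked fit 16 phase I and 8 conjugation enzymes fell, beside 15.6% of all genes.

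Of 25 bile acid genes 4 fell and 2 rose, beside 7.13% and 6.9% of all genes. The 4 were Cyp2a12, Baat, Slc27a5 and Cyp2c70, all enzymes that modify the bile acid molecule. The 2 that rose were the canalicular phospholipid floppase Abcb4, from 27.9, 26.4 and 18.8 to 108, 104 and 60.0 CPM (1.90 ± 0.30), and the basolateral exporter Abcc3 (0.84). In the blocked fit 9 fell and 7 rose, beside 15.6% and 13.8% of all genes. Of 47 genes of amino acid catabolism and the urea cycle 9 fell and 1 rose (15 and 6 with the block), beside the same shares of all genes. Uroc1 (-4.32 ± 0.41) and Ftcd (-2.17 ± 0.25), both of histidine breakdown, and Kmo, of the kynurenine pathway (-2.29 ± 0.26), fell. Ftcd went from 90.5, 121 and 115 to 31.8, 25.6 and 14.8 CPM. The 1 that rose, Ass1 of the urea cycle, was at 0.82, and without siCon 3 the count was 2.

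Carbohydrate and lipid genes changed in small numbers, to be read beside 7.13% falls and 6.9% rises over all genes (15.6% and 13.8% with the block). Of 31 genes of glucose, fructose and glycogen metabolism 3 fell and 3 rose (10 and 4 with the block). Among those that fell were Tkfc, the triokinase of fructose breakdown, from 142, 184 and 172 to 37.5, 38.8 and 38.5 CPM (-2.12 ± 0.16), and Gys2. Pfkfb1, which sets the level of a glycolysis activator, rose by 1.38 ± 0.20. The count of rises was 1 without siCon 2 or without siCon 3. Of 34 genes of fatty acid oxidation and ketogenesis 5 fell and 2 rose. Vnn1, a pantetheinase, went from 80.5, 73.5 and 78.0 to 32.9, 28.2 and 43.6 CPM (-1.15 ± 0.16). The 2 others named, Fabp1 (-3.17 ± 0.95) and Acsl1 (-0.90 ± 0.25), lost the threshold without any 1 of 6 libraries and without 5 of 6 (all but double knockdown 1), with adjusted p up to 0.134 and 0.132.

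In the same list 2 genes fell without double knockdown 2 or 3 or siCon 2 or 3 and 3 without siCon 1, and 1 rose when any library but siCon 1 was left out. Of 35 genes of lipogenesis and cholesterol synthesis 3 fell and 2 rose (7 and 3 with the block). Elovl6, a fatty acid elongase, went from 26.5, 24.4 and 34.8 to 58.5, 62.6 and 66.1 CPM (1.13 ± 0.17). The count of falls was 1 without double knockdown 1 or 2 or siCon 2 or 3. Of 32 nuclear genes of oxidative phosphorylation, subunits of the respiratory chain, 1 rose, Ndufa4, from 55.3, 55.8 and 59.5 to 75.3, 75.2 and 76.0 CPM (0.41 ± 0.09), and 0 fell (4 and 0 with the block).

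Genes of interferon and double-stranded RNA sensing were listed because siRNAs are themselves short RNA duplexes. Both groups received siRNA, in the double knockdown against 2 targets. The part of the siRNA itself in the values below was not tested. Of 30 tested members 2 rose and 0 fell, 29 of 30 had a log2 fold change above 0 and the median was 0.63. The count of 2 is near the 6.9% of all genes that rose. Oasl2, an interferon-induced protein of RNA sensing, was at 1.50 ± 0.45 (12.1, 32.9 and 27.1 to 43.4, 73.0 and 87.8 CPM) and Tlr3, the endosomal receptor for double-stranded RNA, at 0.72 ± 0.18 (19.3, 25.1 and 25.9 to 29.9, 43.5 and 42.4 CPM). In both genes the treated libraries lay above the controls. Oasl2 missed the threshold without any library but double knockdown 1 (adjusted p up to 0.14) and Tlr3 without double knockdown 2 or 3 or siCon 1 (up to 0.0767). With mouse as a block 17 members rose, beside 13.8% of all genes, and 0 fell. Oas3, named after its values were seen, was among the 15 added and had 2.46, 35.3 and 29.1 CPM in siCon and 15.7, 58.5 and 144 in the double knockdown, higher in each mouse with overlapping groups. With 1 library left out 0 to 2 rose, 0 without double knockdown 2 or 3 or siCon 1 and 1 without siCon 2 or 3. The labels do not say whether the siRNA dose was the same in both groups.

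Of 34 genes of the acute phase and inflammation 3 fell and 2 rose (8 and 2 with the block), beside the shares over all genes (7.13% and 6.9%, with the block 15.6% and 13.8%). Besides Il1f9, Cxcl10, an interferon-induced chemokine, was higher (1.78, 3.51 and 4.46 to 6.37, 15.4 and 21.4 CPM, 2.15 ± 0.53), and Cd14, a co-receptor for endotoxin, lower (666, 390 and 395 to 238, 169 and 208 CPM, -1.24 ± 0.32). Cxcl10 missed the threshold without double knockdown 2 or 3 or siCon 1 or 2 (adjusted p up to 0.0748), and Cd14 without double knockdown 2 or 3 or siCon 1 (up to 0.105). The falls numbered 0 without double knockdown 2 and 1 without double knockdown 3 or siCon 1. The rises numbered 1 without double knockdown 2 or 3 or siCon 1 or 2. Cd14 is also made by Kupffer cells, whose markers other than Cd68 were lower in the double knockdown without overlap, as given above. Of 11 tested Kupffer markers 10 had a log2 fold change below 0 and 0 passed the test (1 without siCon 3, and 6 fell with the block); their part in the fall of Cd14 was not tested.

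Of 34 cell cycle genes 2 fell and 0 rose, with 30 of 34 below 0 and a median of -0.74. The count of 2 is no larger a share than the 7.13% of all genes that fell. The 2 were Mcm7, a subunit of the replicative helicase, from 72.5, 85.0 and 75.4 to 42.9, 48.6 and 51.3 CPM (-0.71 ± 0.10), and Ccnd2, cyclin D2, from 20.9, 18.6 and 25.7 to 11.9, 11.8 and 13 (-0.83 ± 0.13). In the blocked fit 24 fell, beside 15.6% of all genes. Among the genes added was Mki67, the proliferation marker, named after its values were seen, with 7.06, 37.2 and 39.2 CPM in siCon and 1.87, 14.2 and 28.6 in the double knockdown. Each mouse was lower, and the groups overlapped. With 1 library left out 2 to 4 fell, 4 without double knockdown 3 or without siCon 1.

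Counts of adhesion, junction and biliary genes stand beside the same shares over all genes, 7.13% falls and 6.9% rises, with the block 15.6% and 13.8%. Of 53 mesenchymal, cytoskeletal and YAP-target genes 5 fell and 4 rose (22 and 7 with the block). Ccn2, a matricellular target of YAP, went from 138, 332 and 412 to 47.3, 55.2 and 83.9 CPM (-2.24 ± 0.46), and Amotl2, also a YAP target, from 225, 485 and 481 to 79.4, 108 and 120 (-1.95 ± 0.38). Vcl, vinculin of focal adhesions, went from 201, 203 and 191 to 377, 462 and 465 (1.13 ± 0.11). The rises numbered 2 without double knockdown 2 or 3 or siCon 1 or 2 and 1 without siCon 3. Of 28 junction and polarity genes 5 fell and 1 rose (11 and 1 with the block). Cldn2, the pore-forming claudin of pericentral hepatocytes, went from 73.0, 104 and 131 to 13.5, 17.1 and 26.8 CPM (-2.42 ± 0.34), Cldn14 fell by 1.61 ± 0.29 and the junctional adhesion molecule F11r fell by 0.50 ± 0.08. Cldn1 went the other way, from 18.5, 15.1 and 13 to 84.0, 42.9 and 36.4 CPM (1.81 ± 0.46), and missed the threshold without double knockdown 1 or siCon 2 or 3 (adjusted p up to 0.0953), which left 0 rises.

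Of 17 tested progenitor and biliary genes 3 fell and 0 rose (9 and 1 with the block). They were Krt19, a keratin of bile duct cells (3.97, 11.5 and 17.6 to 1.67, 0.606 and 2.02 CPM, -2.94 ± 0.62), Sox4 (392, 496 and 459 to 121, 150 and 162 CPM, -1.64 ± 0.18) and Sox9 (29.5, 45.4 and 43.9 to 11.9, 15.5 and 12.3 CPM, -1.58 ± 0.24), both factors of biliary development. The 9 cholangiocyte markers, Krt19 and Sox9 among them, summed to 117.8 to 309.3 CPM in siCon and to 85.3 to 204.4 in the double knockdown, lower in each mouse with overlapping groups. The part of these cells in the falls of Krt19 and Sox9 was not tested. Without Spp1, the most abundant of them, the other 8 summed to 74.0 to 102.2 and to 58.9 to 66.9 CPM, without overlap. Of 5 tested cholangiocyte markers 2 fell (4 with the block), and 1 of the 9 was at 0 in all 6 libraries. Without siCon 2, 1 member of the progenitor list rose.

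The growth hormone and IGF axis held 7 falls and 1 rise among 21 tested genes, with a median of -0.48. With the block these were 11 and 2. Over all genes 7.13% fell and 6.9% rose, with the block 15.6% and 13.8%. Socs2 (82.6, 123 and 104 to 18.7, 26.3 and 13.3 CPM, -2.41 ± 0.33) and Cish (45.2, 80.3 and 75.6 to 14.4, 18.4 and 14.5 CPM, -2.09 ± 0.34), both feedback inhibitors induced through STAT5, fell together with Stat5b and Igfbp4. Igfbp3, a carrier of IGF1, was at -2.88 ± 0.67 and missed the threshold without double knockdown 1 or 2 or siCon 3 (adjusted p up to 0.0614). The single rise was Met, the receptor of hepatocyte growth factor, at 0.49, which held with all libraries and without siCon 1 but with none of the others left out.

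Of 24 glucocorticoid-responsive genes, in medium with dexamethasone in both groups, 5 rose and 2 fell (9 and 3 with the block), beside 6.9% and 7.13% of all genes (13.8% and 15.6%). Klf15 and Klf9 rose as given above. Mt2, a metallothionein, went from 660, 487 and 338 to 917, 872 and 839 CPM (0.82 ± 0.23) and missed the threshold without any library but siCon 1 (adjusted p up to 0.111). Gadd45b, a stress-inducible gene, fell by 1.59 ± 0.24, and Angptl4, an inhibitor of lipoprotein lipase, was at -1.28 ± 0.31 and missed it without double knockdown 3 or siCon 2 or 3 (up to 0.0682). With 1 library left out 4 rose without siCon 1, 3 without double knockdown 1, 2 or 3 or siCon 2 and 2 without siCon 3, and 1 fell without double knockdown 3 or siCon 2 or 3. Of 10 tested major urinary proteins 3 fell, and after Mup20 the largest fall was that of Mup3, from 126, 194 and 222 to 26.4, 29.7 and 21.5 CPM (-2.80 ± 0.24). The other 7 did not pass the test, and the median of the 10 was 0.05. Members of this family are close copies, between which counts could be split.

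The fit also gave the difference of the double knockdown from each siRNA alone, which shares the double knockdown libraries with the comparison above. Against siHnf4a alone 1 of 15090 genes passed the threshold (0.00663%), Cebpa itself, at 94.2 ± 13.1 CPM (SD, n = 3) against 214.4 ± 17.0 (log2 difference -1.19 ± 0.12, adjusted p = 0.0188, edgeR). The block left this count at 1. Against siCebpa alone (30.0 ± 3.81 CPM) Cebpa was higher in the double knockdown, by 1.65 ± 0.13 log2 units (adjusted p = 5.11e-05), so its knockdown was weaker there than with siCebpa alone. Over all genes, the comparison with siCebpa alone had 983 genes higher (6.51%) and 976 lower (6.47%). With the block these were 1964 and 2157.

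Adh7 had a mean of 55.8 CPM in the double knockdown, 59.3 in siHnf4a and 3.02 in siCebpa. Mup20 had 1.39, 3.60 and 133 CPM in the same order, Serpinf2 7.49, 14.7 and 150, and Trf 3996, 4336 and 15730. The siCon means of Adh7, Mup20, Serpinf2 and Trf were 0.955, 281, 183 and 18040 CPM. In these 4 genes the mean of the double knockdown was closer to that of siHnf4a alone than to that of siCebpa alone. Derl3 had 22.9, 17.1 and 10.6 CPM beside 1.03 in siCon, Gclc 2661, 2596 and 1495 beside 646, and Creb3l3 6.35, 11.2 and 30.4 beside 55.2. The double knockdown means of these 3 genes were likewise closer to siHnf4a alone. In these 3 genes, as in the 4 above, siCebpa alone had a mean between siCon and the other groups. Gstp1 had 3262, 3171 and 3420 CPM beside 2123 in siCon, and Fth1 3230, 3026 and 3223 beside 1973. Ftl1 had 1781 CPM in the double knockdown and 1557 in siHnf4a but 6143 in siCebpa, beside 3937 in siCon. The difference from siCebpa passed the threshold for Adh7 (4.21, adjusted p = 0.000192), Mup20, Serpinf2, Trf, Derl3, Gclc, Creb3l3 and Ftl1 and not for Gstp1 or Fth1. The difference from siHnf4a passed it for none of these 10. For Alb it was -0.64 against siHnf4a and -0.70 against siCebpa, past the threshold in neither. In the blocked fit the difference of Alb from siCebpa passed it (adjusted p = 0.0127) and that from siHnf4a did not (0.308). A missed threshold does not show that the double knockdown and siHnf4a alone act alike.

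**Figure D5:**
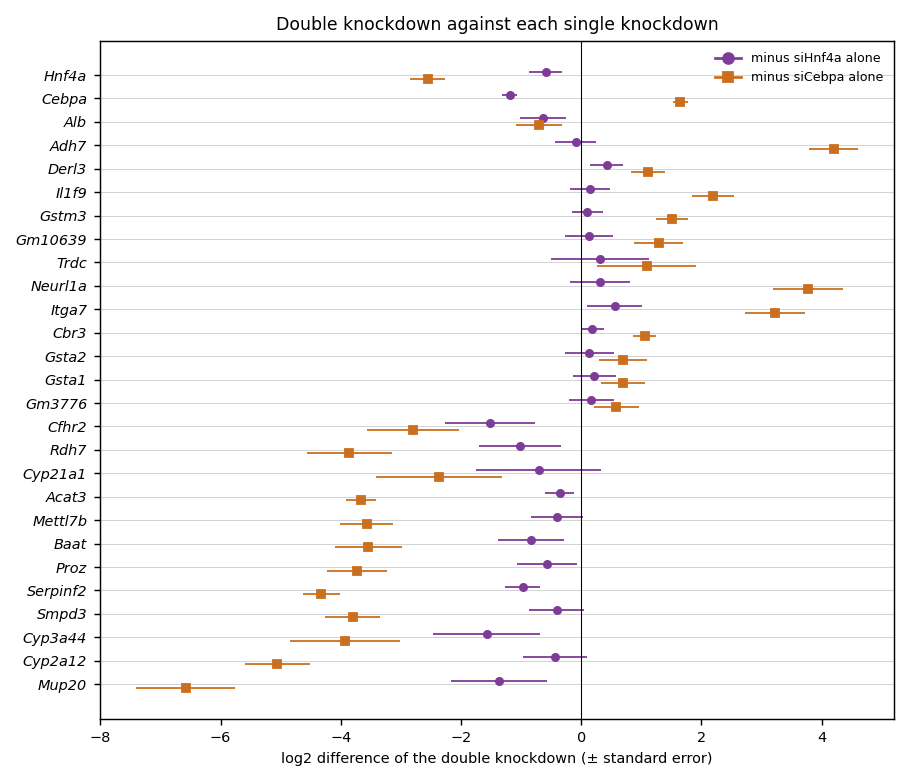
Log2 difference of the double knockdown from siHnf4a alone (purple circles) and from siCebpa alone (orange squares), with standard errors, for Hnf4a, Cebpa, Alb and the 24 genes with the largest changes against siCon. Against siHnf4a the values run from -1.57 (Cyp3a44) to 0.56 (Itga7) and only that of Cebpa passed the test, while against siCebpa they run from -6.58 (Mup20) to 4.21 (Adh7).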

How the data were processed

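Total RNA of transfected primary hepatocytes was sequenced on the BGISEQ-500, per the labels' protocols. The submitters' processing notes name Trim Galore 0.6.4, kallisto 0.4.6 and GRCm38.p6, and neither annotation nor strand setting. The authors deposited estimated counts per gene, which need not be whole because kallisto splits reads between similar transcripts. The authors also deposited TPM values, which are scaled for transcript length and depth. Identifiers were named from GENCODE M21 (54487 of 55385 matched with their version).

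Counts were rounded to whole numbers and fitted with edgeR 4.0.16 (R 4.3.3) over all 12 libraries, with TMM scaling, the filterByExpr filter (0.42 CPM) and Benjamini-Hochberg adjustment over 15090 genes at 0.05. TPM served for limma alternatives with a log2 pseudocount. Libraries with the same number come from 1 mouse, per the series' design text. Residuals of such pairs correlated at 0.156 to 0.684 over 18 pairs, and all 12 libraries correlated best with their own mouse, so fits with mouse as a block are given where they change a call or move a count by over 1.5 times. Alternatives were DESeq2 1.42.0, other scaling, filters and samples, limma 3.58.1 on TPM, and leaving out each library. The fits that left out a library had no block. All 2117 main calls stood in the blocked fit of all 12 libraries.

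Named genes were the 12 largest rises and falls with a mean of at least 10 CPM, the 6 largest changes in CPM in each direction, the targets, Alb, the liver transcription factors and up to 4 called members of each list; others are said to be named after their values were seen. Members and lists were chosen with earlier results of these data known. Promoters are from the RefSeq table for GRCm38.p6, which held 10744 of 15068 tested genes with a symbol. Among genes named, Adh7, Trdc, Neurl1a, Itga7, Smpd3, Mettl7b, Acat3, Cyp21a1, Fn1, Cp, Ftl1, Cideb, Sult1a1, Kmo, Tkfc, Gpx2, Mcm7, Ccn2, Vcl and Cish, with others, overlap a gene on the other strand, so their values are less certain. Some members of the lists are counted but not reported here by name.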

Additional observations from a re-analysis of the deposited data

How the results depend on the processing

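With mouse as a block (the replicate block) over the 12 libraries, Alb was at -0.56 with adjusted p = 0.0238, 2089 genes rose and 2359 fell. With only the 6 libraries and the block, Alb was at -0.56 with adjusted p = 0.0109 and 1858 genes fell. Leaving out 1 library gave 577 to 1013 rises and 637 to 1028 falls. The cause of these differences was not tested. Over 15 alternatives the adjusted p of Alb ran from 0.0109 to 0.629. The other settings gave, for rises and falls, 1376 and 1351 (DESeq2), 1064 and 1073 (RLE scaling), 806 and 936 (no filter), 1017 and 1160 (stricter filter), 761 and 862 (6 libraries), and 731 and 794 or 725 and 777 (limma on TPM). Of 145 named genes 111 were called, 80 of them under every alternative and 82 in every fit without 1 library, with 0 changes of sign; 11 of the other 34 were called under some alternative. Gys2 and Ccnd2 were lost in the TPM fits. Of 780 list counts 634 stayed within 1.5 times. Depth was 22453445 to 25008195 counts, and genes with few counts, such as Aspdh, Muc13 and Cyp3a25, are given as levels only.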
